A study of Mus musculus with 40 samples.

Results

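Developing oligodendrocytes that had received interferon-gamma (IFN-gamma) for 24 h were compared with untreated cells collected at the same time, using 8 of the 40 bulk RNA sequencing libraries of the series, 4 in each group. All cells came from wild-type C57BL/6 mice aged 6 to 7 days. Oligodendrocyte progenitors had been captured from the cortex on antibody-coated dishes (immunopanning), carried through 2 passages, held for 12 to 14 h in differentiation conditions and then assigned to treatments at random. The treated cells received IFN-gamma at 200 U/ml for 24 h, and the untreated cells received no agent and were collected after 24 h. The labels name the whole brain as the tissue, whereas the growth protocol names the cortex. IFN-gamma and untreated libraries at 8 h and at 48 h, 4 in each group, served to test where the 24 h response differed from the response before and after it. Whether replicates of a group were separate cultures or animals is not stated in the labels, so the p-values measure only the spread between these libraries, which may be technical.

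IFN-gamma is a cytokine released by activated T cells and natural killer cells. Its receptor, made of Ifngr1 and Ifngr2, acts through the kinases Jak1 and Jak2 on transcription factors of the STAT family, whose dimers bind gamma-activated sites (GAS) in the promoters of early genes such as Irf1. The interferon regulatory factors made in this way bind interferon-stimulated response elements (ISRE) and switch on GTPases that attack intracellular parasites, the machinery of antigen presentation, and antiviral genes. Oligodendrocytes form the myelin of the central nervous system. Their progenitors carry the receptor Pdgfra, pass through a premyelinating stage marked by Enpp6, Bcas1 and Gpr17, and then make the myelin proteins Mbp and Mog. T cells that make IFN-gamma are found in the lesions of inflammatory demyelinating disease, where oligodendrocytes and their progenitors meet the cytokine.

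The 8 libraries held 15837650 to 22651092 reads on genes, and 15135 genes were read often enough to be tested. Levels are counts-per-million (CPM) with library sizes scaled by TMM, a trimmed mean of the ratios between libraries. Untreated replicate 4 stood apart from its group, with a median distance over genes of 0.187 on the log2 scale from the mean of the other untreated libraries, against 0.0892 to 0.109 for those. It had reads on 16729 of the 23921 genes left out as too sparsely read, whereas the other 7 libraries had reads on 3411 to 7638 of them. IFN-gamma replicates 1 and 3 had 6.74 and 0.656 CPM over 4 Y-linked genes, while the other 6 libraries had 216 to 331 CPM, and the labels give no sex. The X-linked RNA Xist had 559, 11.1, 521 and 0.26 CPM in IFN-gamma replicates 1 to 4. In untreated replicates 1 to 4 it had 81.3, 100.6, 148.8 and 0.805 CPM, so the libraries high in Y-linked reads also differed. Whether the sex of the cultures differed between the groups was not tested. The part that untreated replicate 4 and the libraries low in Y-linked reads play in the results was not tested. Calls of named genes that turn on untreated replicate 4 are given with and without it. For the IFN-gamma libraries low in Y-linked reads, counts of calls and values of some genes are given. With them left out at every time, 39 genes named as higher or lower were not called. In bulk libraries fewer cells of a type and less RNA per cell cannot be told apart.

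After 24 h of IFN-gamma, 1908 genes were higher and 1585 were lower than in untreated cells, 12.6% and 10.5% of the genes tested (edgeR's quasi-likelihood test, Benjamini-Hochberg adjusted p under 0.05 over all tested genes, which is the call used throughout). The change was at least 2-fold for 609 of the higher and 406 of the lower genes. It was at least 16-fold for 158 of the higher genes and for 4 of the lower ones, the G protein subunit Gng4 and 3 genes whose untreated means were under 1 CPM, Arap3 (log2 fold change -5.41), Epcam and Sftpc (-4.04). With untreated replicate 4 left out, Arap3 (-3.17, adjusted p = 0.413) and Sftpc (-3.15, adjusted p = 0.0836) were not called, and Gng4 was at -3.14. Arap3 was also not called with any one of the IFN-gamma libraries left out (adjusted p of 0.0721 to 0.0816). The 158 genes took up 3.28 to 3.75% of the reads in IFN-gamma libraries, against 0.0395 to 0.0413% in untreated libraries. Of these, 26 lie on chromosome 17, which holds the major histocompatibility complex (MHC), among 715 tested genes there, 24 of 1177 on chromosome 11 and 14 of 983 on chromosome 5. The 406 genes that were at least 2-fold lower took up 0.303 to 0.543% of the reads in IFN-gamma libraries, against 0.976 to 1.86% in untreated libraries. The libraries of the groups did not overlap for 3850 genes (25.4%), and 2977 of these were also called. With the IFN-gamma libraries low in Y-linked reads left out at every time, 2015 genes were called, and with library numbers 1 to 20 alone, which leave 2 libraries in a group, 1526. Without the replicate that stood apart, untreated replicate 4, the number was 2683.

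**Figure D1:**
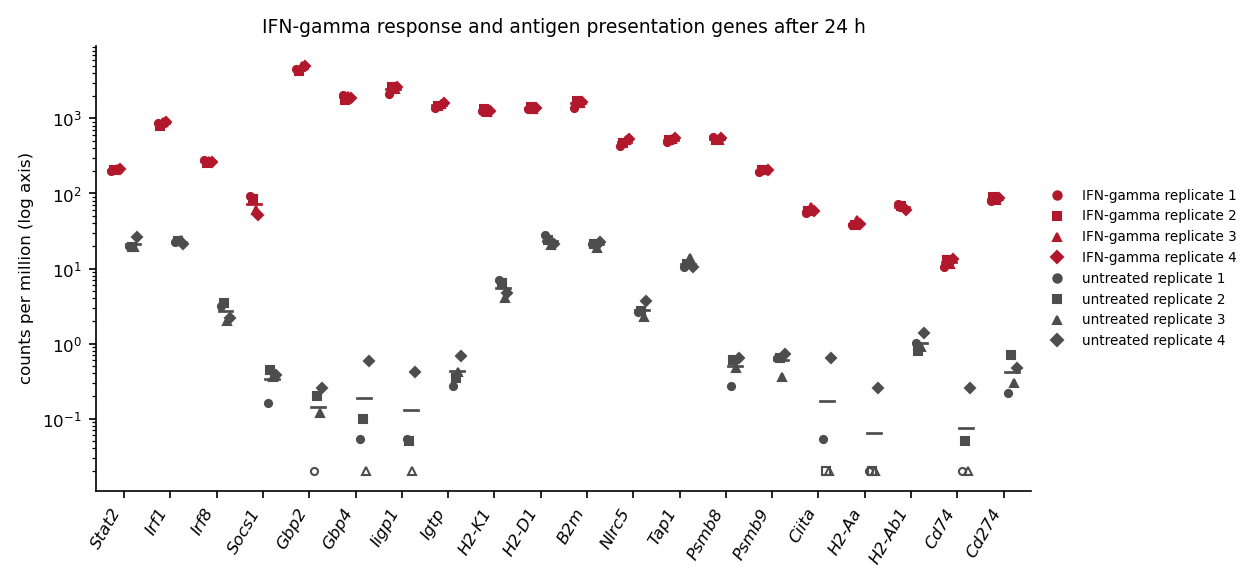
Levels of interferon response genes in the 4 IFN-gamma libraries (red) and the 4 untreated libraries (grey) after 24 h, in CPM on a log axis. Symbols mark replicates 1 to 4, bars the group means and open symbols at the bottom 0 CPM. For each gene shown, all IFN-gamma libraries lie above all untreated libraries.

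The chain that carries the IFN-gamma signal was itself raised in part. Stat2, a transcription factor of the chain that type I interferons use as well, had 199.8, 208, 210.0 and 214 CPM in IFN-gamma libraries, against 19.7, 19.1, 19.4 and 26.3 CPM in untreated libraries. The groups lay far apart, and the log2 fold change was 3.30 with an SE of 0.15 and an adjusted p of 4.06e-20. Of the 8 tested genes among 9 of the receptor, JAK and STAT list 5 rose, among them Stat2, Jak1 (log2 fold change ± SE of 0.66 ± 0.06, written in this way for the genes that follow), Jak2 (0.57 ± 0.06) and Stat3 (0.44 ± 0.04). The receptor chain Ifngr2 fell by 0.51 ± 0.09, and Ifngr1 and Stat5a were not called. The median log2 fold change of this list was 0.50, against -0.01 over all genes tested.

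Of 6 tested interferon regulatory factors (IRFs) among 9, 5 rose. Irf8, better known from myeloid cells, and Irf7, which drives type I interferon genes, were close to silent without the cytokine and had log2 fold changes of 6.63 ± 0.23 and 6.62 ± 0.38. Irf1, the early activator of MHC class I and GTPase genes, had 879.9, 789, 886 and 883 CPM in IFN-gamma libraries, against 22.7, 23.6, 23.7 and 21.4 CPM in untreated libraries. No IFN-gamma library reached down to the untreated ones, with a log2 fold change of 5.23 with an SE of 0.13 and an adjusted p of 7.42e-27. Irf9 (3.29 ± 0.12), which takes STAT proteins to ISREs, and the repressor Irf2 (1.18 ± 0.15) rose by less, and Irf3, which is activated by phosphorylation, was not called (-0.01 ± 0.08). Feedback inhibitors of cytokine signalling rose for 7 of 15 genes. Socs1, the inhibitor of JAK kinases, had 91.5, 84.3, 61.1 and 50.9 CPM in IFN-gamma libraries, against 0.163, 0.451, 0.358 and 0.382 CPM in untreated libraries. Its groups were apart by a log2 fold change of 7.69 with an SE of 0.37 and an adjusted p of 8.49e-19, and Usp18, which dampens the type I interferon receptor, by 6.33 ± 0.28. Socs2 (2.69 ± 0.20) and Socs3 (0.60 ± 0.16) rose by less.

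GTPases that attack the membranes around intracellular parasites had the largest median changes of the lists examined. All 10 tested guanylate-binding proteins (GBPs) among 11 rose, with a median log2 fold change of 9.45, and so did all 11 tested immunity-related GTPases (IRGs) among 12, with 11.72. A gene silent in untreated cells can pass the filter only through the IFN-gamma libraries, so these shares are descriptions. The same holds for the shares and medians of the class II, chemokine, antiviral and other interferon lists below, which leave out genes not tested. Both families together took up 1.73 to 2.03% of all reads in IFN-gamma libraries, against 0.0108 to 0.0111% in untreated libraries. Gbp2 had 4536, 4253, 4966 and 5030.4 CPM in IFN-gamma libraries, against 0, 0.2, 0.119 and 0.254 CPM in untreated libraries. Each untreated library was under 1 CPM and far below every IFN-gamma library, with a log2 fold change of 14.86 with an SE of 0.59 and an adjusted p of 1.69e-21. Per kilobase of exon Gbp2 averaged 1867 CPM in IFN-gamma cells, next to 1852 CPM for B2m, the light chain of MHC class I.

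Iigp1, an IRG that loads on to parasite vacuoles, had 2093, 2622, 2490.1 and 2602 CPM in IFN-gamma libraries, against 0.0543, 0.0501, 0 and 0.424 CPM in untreated libraries. Most of its untreated reads came from replicate 4, and the log2 fold change was 13.92 with an SE of 0.45 and an adjusted p of 4.1e-24 with that library and 15.81 without it. Igtp, a regulator of the other IRGs, had 1397, 1482, 1572 and 1615 CPM in IFN-gamma libraries, against 0.271, 0.351, 0.418 and 0.678 CPM in untreated libraries. Its untreated level was low but present in all 4 libraries, and its log2 fold change was 11.72 with an SE of 0.40 and an adjusted p of 1.38e-23. Tgtp1 and Ifi47 had 2 and 3 reads over the untreated group, so only wide ratios can be given, 20066 (95% counting interval 5555 to 165697) for Tgtp1 and 12570.2 (95% counting interval 4301 to 60957) for Ifi47, intervals that cover counting error only. Gm5970, which the annotation lists as a processed pseudogene, had no read in the untreated group and was at least 639.5-fold higher in IFN-gamma cells, taking 3 reads over the group as the floor. Tgtp1 and Tgtp2 are near-identical copies, and reads of the GBPs and IRGs may be split between neighbours, so the values of single members are uncertain.

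The promoters of such genes carry the letters that STAT dimers and the IRFs are known to bind. The windows below, from RefSeq on GRCm38.p6, run from 250 bases before to 50 bases after the annotated start and are written 5′ to 3′ on the strand of the gene. They are shown for an early transcription factor, for GTPases with different motifs and for the class I light chain. Capitals mark GAS letters (TTCNNNGAA) and ISRE core letters (GAAANNGAAA, searched on both strands).
Irf1 (chr11:53769764-53770063, plus strand): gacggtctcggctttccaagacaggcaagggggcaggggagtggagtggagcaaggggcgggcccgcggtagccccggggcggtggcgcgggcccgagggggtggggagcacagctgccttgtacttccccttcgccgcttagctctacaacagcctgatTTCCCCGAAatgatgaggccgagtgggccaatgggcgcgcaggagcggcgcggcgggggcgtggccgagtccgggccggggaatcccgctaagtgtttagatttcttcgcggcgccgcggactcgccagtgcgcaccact
Igtp (chr11:58199306-58199605, plus strand): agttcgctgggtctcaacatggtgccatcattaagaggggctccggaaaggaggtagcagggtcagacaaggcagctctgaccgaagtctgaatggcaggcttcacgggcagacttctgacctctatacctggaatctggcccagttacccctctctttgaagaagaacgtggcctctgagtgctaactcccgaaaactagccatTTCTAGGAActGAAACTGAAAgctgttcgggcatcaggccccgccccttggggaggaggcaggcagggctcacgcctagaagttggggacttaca
Tgtp2 (chr11:49064163-49064462, minus strand): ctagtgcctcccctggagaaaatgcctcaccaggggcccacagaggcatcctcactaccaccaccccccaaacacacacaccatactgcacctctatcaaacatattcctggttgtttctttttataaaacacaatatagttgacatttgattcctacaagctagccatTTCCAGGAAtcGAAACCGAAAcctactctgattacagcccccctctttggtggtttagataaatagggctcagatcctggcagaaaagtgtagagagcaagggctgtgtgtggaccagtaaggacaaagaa
Gbp2 (chr3:142620413-142620712, plus strand): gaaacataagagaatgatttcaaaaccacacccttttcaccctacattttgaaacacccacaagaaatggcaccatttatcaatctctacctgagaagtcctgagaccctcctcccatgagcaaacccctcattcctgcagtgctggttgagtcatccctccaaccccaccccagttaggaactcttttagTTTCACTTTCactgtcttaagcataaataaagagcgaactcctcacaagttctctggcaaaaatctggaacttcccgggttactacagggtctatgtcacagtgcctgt
B2m (chr2:122147437-122147736, plus strand): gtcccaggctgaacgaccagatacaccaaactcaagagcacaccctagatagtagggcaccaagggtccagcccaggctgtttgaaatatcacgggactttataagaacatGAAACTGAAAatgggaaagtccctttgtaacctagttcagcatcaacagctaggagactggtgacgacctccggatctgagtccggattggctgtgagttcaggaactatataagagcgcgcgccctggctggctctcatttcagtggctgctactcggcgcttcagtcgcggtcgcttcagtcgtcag

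The Irf1 window holds a GAS match from -90 to -82, counted from the start. Igtp has a GAS match from -45 to -37 followed by an ISRE match from -34 to -25, and Tgtp2 has the same order, with a GAS match from -81 to -73 and an ISRE match from -70 to -61. Gbp2 has an ISRE match from -59 to -50 on the opposite strand, and B2m has an ISRE match from -139 to -130. Among 410 genes at least 2-fold higher that had a promoter in the table, 15.1% held GAS letters, 18.8% held ISRE letters and 29.5% held either. Among 293 genes at least 2-fold lower the shares were 8.87%, 2.73% and 10.9%, and among 8298 genes that were not called 7.81%, 2.95% and 10.5%. Over all 27025 genes with a promoter window the shares were 9.55%, 3.99% and 12.9%. A gene was counted if any of its windows held the letters, and some genes have more windows than others. The windows of Psmb9, Tap1, H2-K1 and H2-D1 hold neither set of letters, which says only that they are absent from these 300 bases.

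Genes of antigen presentation by MHC class I rose, from the proteasome that cuts peptides to the chains that show them at the cell surface. All 12 class I chains rose, with a median log2 fold change of 6.72, and together they took up 0.551 to 0.639% of the reads in IFN-gamma libraries, against 0.00805 to 0.00936% in untreated libraries. H2-Q7, a nonclassical chain, had 149, 168, 168 and 177 CPM in IFN-gamma libraries, against 0.977, 1.25, 1.01 and 1.19 CPM in untreated libraries. All untreated libraries were below all IFN-gamma libraries, and the log2 fold change was 7.20 with an SE of 0.22 and an adjusted p of 8.24e-25. The class I genes are close copies of each other, so their single values are uncertain. Nlrc5, the transactivator of class I genes, rose by 7.41 ± 0.30. Of 8 peptide loading genes 6 rose, among them the peptide transporter subunits Tap1 (5.50 ± 0.17) and Tap2 (6.02 ± 0.18), while the general chaperones Calr and Canx were not called.

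The immunoproteasome, in which 3 catalytic subunits replace their standard counterparts, rose, while the constitutive 20S subunits changed by little. Psmb8 had 561, 518, 512 and 548 CPM in IFN-gamma libraries, against 0.271, 0.601, 0.477 and 0.636 CPM in untreated libraries. The groups did not overlap, with a log2 fold change of 10.03 with an SE of 0.26 and an adjusted p of 1.08e-26, and Psmb9 (8.36 ± 0.19), Psmb10 (4.54 ± 0.12), the activator subunits Psme1 (3.23 ± 0.09) and Psme2 (3.09 ± 0.09) and the assembly factor Pomp (0.34 ± 0.07) rose as well. Per kilobase of exon, the ratio of Psmb8 to its counterpart Psmb5 was 1.31 to 1.43 in IFN-gamma libraries, against 0.000686 to 0.002 in untreated libraries. For Psmb9 and Psmb6 the ratio was 0.52 to 0.641, against 0.000838 to 0.00205. For Psmb10 and Psmb7 it was 2.88 to 3.24, against 0.12 to 0.139, so Psmb10 alone of these subunits was well above 0 in untreated cells. Of the 14 subunits of the constitutive 20S particle 6 rose, with a median log2 fold change of 0.15, and without untreated replicate 4 the number was 2. Over all genes tested 12.6% were higher. Psmb6 was not called (-0.214, adjusted p = 0.074), but without untreated replicate 4 it was called lower (-0.276 ± 0.088, adjusted p = 0.0247).

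MHC class II, normally a property of professional antigen-presenting cells, was raised as well. Of 11 tested genes among 15 on this list 7 rose, and the median log2 fold change was 5.88. Ciita, the master regulator of class II, had 54.2, 57.9, 66.8 and 57.8 CPM in IFN-gamma libraries, against 0.0543, 0, 0 and 0.636 CPM in untreated libraries. Nearly all of its untreated signal lay in replicate 4, and the log2 fold change was 8.15 with an SE of 0.40 and an adjusted p of 1.47e-18 with that library and 11.22 without it. H2-Ab1, a class II beta chain, had 72.3, 68.3, 66.1 and 60.5 CPM in IFN-gamma libraries, against 1.03, 0.801, 0.895 and 1.4 CPM in untreated libraries. Both groups were tight and far apart, and the log2 fold change was 5.99 with an SE of 0.16 and an adjusted p of 4.07e-26. Per kilobase of exon H2-Ab1 averaged 26 CPM in IFN-gamma cells, next to 432 CPM for the class I chain H2-K1.

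Among secreted and surface signals, 7 of 11 tested chemokine and cytokine genes rose. The T cell attractants Cxcl10 (6.98 ± 0.74) and Cxcl9 (3.52 ± 0.74) rose by the largest log2 fold changes of the list, ahead of Cxcl12 (2.15 ± 0.46), the macrophage growth factor Csf1 (1.69 ± 0.22) and Cx3cl1 (1.55 ± 0.21). In the transcript table summed per gene Cxcl9 was at 0.02 and not called. Cxcl10 had 12.2, 4.31, 6.42 and 5.99 CPM in IFN-gamma libraries, against 0, 0.0501, 0 and 0.127 CPM in untreated libraries. All IFN-gamma libraries were above all untreated libraries, and without untreated replicate 4, which held most untreated reads, its log2 fold change was 8.18. Surface ligands and death receptors rose for 7 of 9 tested genes. Cd274, known as the T cell inhibitory ligand PD-L1, had 79.3, 90, 82.1 and 86.1 CPM in IFN-gamma libraries, against 0.217, 0.701, 0.298 and 0.466 CPM in untreated libraries, a log2 fold change of 7.59 with an SE of 0.32 and an adjusted p of 8.1e-21 with no overlap. Galectin 9 (Lgals9, 6.31 ± 0.39), the adhesion molecule Icam1 (4.70 ± 0.45) and the death receptor Fas (2.63 ± 0.18) rose too. Of 9 tested complement genes, the inhibitor Serping1 (9.70 ± 0.29), C1ra (6.80 ± 0.41), C2 (4.56 ± 0.25) and C4b (3.12 ± 0.19) rose, and the complement regulator Cd55 fell by 0.95 ± 0.33. Cd55 was not called without IFN-gamma replicates 1 (-0.95), 3 (-0.78) or 4 (-0.99) or untreated replicates 3 (-0.74) or 4 (-0.87).

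Genes better known from type I interferon responses took part as well. Of 30 tested antiviral genes among 34, 29 rose, with a median log2 fold change of 5.51, and the exonuclease gene Isg20 was not called (0.25 ± 0.32). Ifit1, which binds foreign RNA caps, had 74.8, 102, 95.3 and 103 CPM in IFN-gamma libraries, against 0.109, 0.1, 0 and 0.297 CPM in untreated libraries. The untreated libraries were all close to 0, at a log2 fold change of 9.33 with an SE of 0.30 and an adjusted p of 4e-24. The ubiquitin-like Isg15 rose by 8.06 ± 0.33 and the RNA-sensing kinase Eif2ak2 by 3.81 ± 0.11. PARPs and ubiquitin-like conjugation genes rose for 13 of 15, with Parp14 at 10.10 ± 0.38, and Parp8 and Trim14 (1.14 ± 0.52) were not called. Leaving out untreated replicate 4 put Trim14 among the genes called higher, at 2.30 ± 0.60 (adjusted p = 0.0051). Genes of inflammatory and lytic death rose for 7 of 9 tested, namely the nucleic acid sensor Zbp1 (7.80 ± 0.35), the caspases Casp1 (7.72 ± 0.33), Casp12 (7.18 ± 0.18) and Casp4 (4.99 ± 0.25), the pore-forming Mlkl (4.99 ± 0.21) and Gsdmd (3.80 ± 0.39) and the kinase Ripk1 (0.88 ± 0.09). Apoptotic caspases and BCL2 family genes moved less, with 5 of 21 higher, among them Bid (1.72 ± 0.12), and a median of 0.09. Over all genes tested 12.6% were higher.

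Some genes changed the transcript they made as well as their level. Of 9281 genes with at least 2 transcripts tested, 72 changed the shares of their transcripts in the estimated counts by edgeR's splicing test and 59 by limma on the shares, and 40 (0.431%) by both. Of these 40 genes 37 also rose in level. Each share is a part of the estimated counts of the gene's tested transcripts, which leaves out those too sparsely read. Leaving out untreated replicate 4 gave 143 by edgeR. On simulated data edgeR's test made more false calls than limma, and the genes described here were called by both. Parp11, a mono-ADP-ribosyltransferase, is an example. The share of transcript Parp11-202 was 58.8, 63, 55 and 52.3% in IFN-gamma libraries, against 0, 1.06, 2.49 and 5.79% in untreated libraries. It was above 50% in every IFN-gamma library and under 6% in every untreated library, with an adjusted p for the gene of 3.35e-17 by edgeR and 0.00321 by limma. Parp11-201 took 19.6 to 32.5% in IFN-gamma libraries, against 75.5 to 80.8% in untreated libraries. The submitters' tables hold transcript estimates and not reads across splice sites, so which transcript a read came from is an estimate.

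The Parp11 windows lie at annotated starts, and where transcripts begin in these cells was not observed. Transcript Parp11-202 starts at base 127446840 of chromosome 6 in the GENCODE M21 annotation, the RefSeq start of window 1, while Parp11-201 starts at 127453723, close to the RefSeq start at 127453627 of window 2. Capitals in window 1 mark overlapping ISRE (-44 to -35) and GAS (-37 to -29) letters, and window 2 holds neither.
Parp11 window 1 (chr6:127446590-127446889, plus strand): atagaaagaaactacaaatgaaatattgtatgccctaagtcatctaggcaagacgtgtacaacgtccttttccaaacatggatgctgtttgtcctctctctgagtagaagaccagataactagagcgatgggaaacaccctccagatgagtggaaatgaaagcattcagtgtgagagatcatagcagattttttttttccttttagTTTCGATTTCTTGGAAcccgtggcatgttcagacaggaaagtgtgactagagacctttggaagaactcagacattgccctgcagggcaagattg
Parp11 window 2 (chr6:127453377-127453676, plus strand): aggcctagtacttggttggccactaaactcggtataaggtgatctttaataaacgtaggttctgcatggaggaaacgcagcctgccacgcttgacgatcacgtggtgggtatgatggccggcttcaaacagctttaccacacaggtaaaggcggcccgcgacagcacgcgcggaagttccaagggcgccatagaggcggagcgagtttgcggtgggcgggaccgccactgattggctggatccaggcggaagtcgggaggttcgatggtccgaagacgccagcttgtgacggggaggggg

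Adar, the RNA-editing enzyme, changed in the same manner. Transcript Adar-203 had 22.2, 42.9, 45.1 and 37.8% in IFN-gamma libraries, against 0, 0, 0 and 0% in untreated libraries. It was absent from the estimates of all untreated libraries, while Adar-202 held 37.7 to 56.2% in IFN-gamma libraries, against 83.8 to 91.9% in untreated libraries (adjusted p for the gene of 8.05e-17 by edgeR and 6.79e-05 by limma). Adar-203 starts at base 89730748 of chromosome 3 and Adar-202 at base 89715022. Adar-201 starts at the same base as Adar-203 and held 11.6 to 18% in IFN-gamma libraries, against 4.7 to 12% in untreated libraries, so the start does not belong to Adar-203 alone. The RefSeq window next to that start is printed here with its GAS letters, from +23 to +31, in capitals.
Adar (chr3:89730468-89730767, plus strand): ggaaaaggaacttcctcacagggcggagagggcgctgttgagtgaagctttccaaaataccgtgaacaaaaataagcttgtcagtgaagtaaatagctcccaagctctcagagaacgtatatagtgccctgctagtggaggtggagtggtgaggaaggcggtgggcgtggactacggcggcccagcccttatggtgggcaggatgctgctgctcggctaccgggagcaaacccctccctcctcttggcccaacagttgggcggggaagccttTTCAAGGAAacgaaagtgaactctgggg
Transcript Wars-205 of Wars, the tryptophanyl-tRNA synthetase, took 45.4 to 62.4% in IFN-gamma libraries, against 0 to 3.19% in untreated libraries. Transcript Snx10-207 of the sorting nexin Snx10 took 55.5 to 66.9% in IFN-gamma libraries, against 10.6 to 18.6% in untreated libraries.

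**Figure D2:**
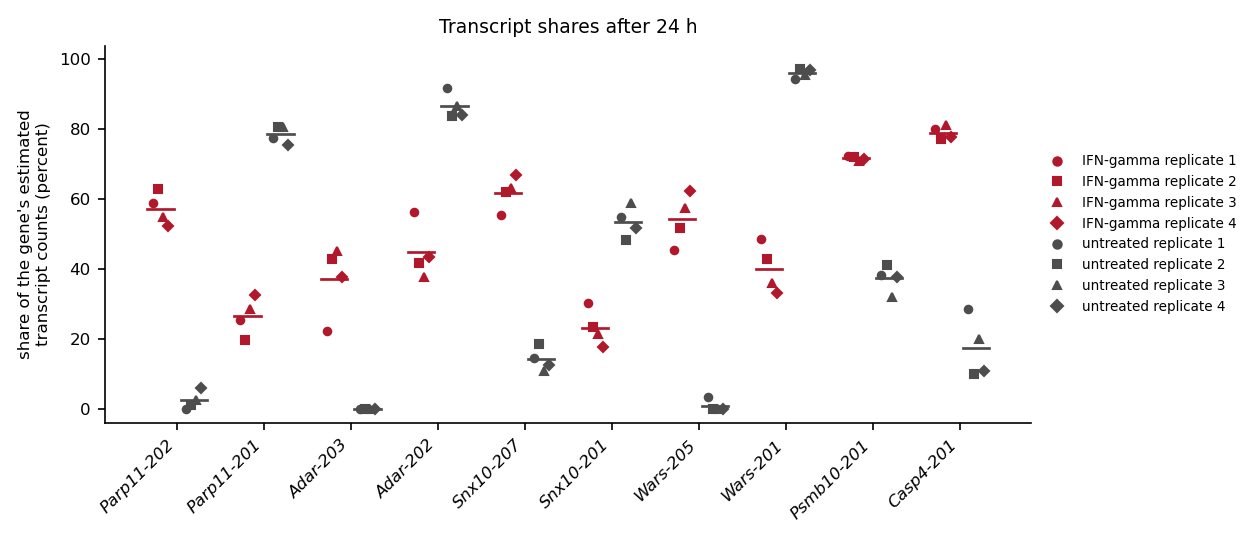
Share of the estimated counts of each gene's tested transcripts, in percent, taken by single transcripts in the 4 IFN-gamma libraries (red, left of each pair) and the 4 untreated libraries (grey). Symbols mark replicates 1 to 4 and bars the means; Parp11-202, Adar-203, Snx10-207 and Wars-205 take larger shares in IFN-gamma libraries, and Parp11-201, Adar-202, Snx10-201 and Wars-201 take smaller ones.

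Stress and metabolic genes moved less, and with more spread. For the lists of this paragraph and those below, the shares over all genes tested were 12.6% higher and 10.5% lower. Of 36 genes of the integrated stress response 13 rose and the serine synthesis gene Psat1 fell, with a median log2 fold change of 0.22. Apart from the interferon-induced Eif2ak2, the largest were the pseudokinase Trib3 (3.19 ± 0.39) and the transcription factor Atf3 (2.34 ± 0.38). Atf3 had 6.85, 1.83, 2.81 and 2.6 CPM in IFN-gamma libraries, against 0.488, 0.851, 0.537 and 0.805 CPM in untreated libraries. Its groups did not overlap, and IFN-gamma replicate 1 was the highest. Without IFN-gamma replicate 1 the list had 6 genes called higher, and without the IFN-gamma libraries low in Y-linked reads 4. Over all genes tested 1541 and 1249 were then called higher, against 1908 with all libraries. Of 31 chaperone and degradation genes of the endoplasmic reticulum, Edem1, Sdf2l1, Manf, Pdia3 and Pdia4 rose and Ssr3 fell, and the chaperone Hspa5 was not called (0.05 ± 0.07). Of 8 tested tryptophan, arginine, pteridine and superoxide genes, the kynurenine enzyme Kmo (2.38 ± 0.61) and Wars (1.60 ± 0.12) rose and the nitric oxide synthase Nos2 (-1.94 ± 0.48) fell. Kmo was at 0.38 and not called in the transcript table summed per gene. Sdf2l1 (0.22) and Manf (0.22) were not called without IFN-gamma replicate 1. Sdf2l1 (0.25), Ssr3 (-0.17) and Nos2 (-1.33) were not called without untreated replicate 4. Manf (0.25) was not called without untreated replicate 2.

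Premyelinating genes were lower across most of their list. Of 21 tested genes among 23, 18 fell, and the GTPase Rras2 rose, with a median log2 fold change of -1.30. Enpp6, a choline phosphodiesterase of newly formed oligodendrocytes, had 7.89, 17.1, 16.6 and 34.4 CPM in IFN-gamma libraries, against 70.8, 71.6, 79.1 and 358 CPM in untreated libraries. Every IFN-gamma library was below every untreated library, untreated replicate 4 stood far above its group, and the log2 fold change was -2.93 with an SE of 0.65 and an adjusted p of 0.000888 with it and -1.95 ± 0.61 (adjusted p = 0.022) without it. Gpr17, a receptor of the same stage, had 331, 845, 777 and 881 CPM in IFN-gamma libraries, against 1367, 1428, 1463 and 2295 CPM in untreated libraries. IFN-gamma replicate 1 was the lowest and untreated replicate 4 the highest, and the log2 fold change was -1.21 with an SE of 0.35 and an adjusted p of 0.01. Gng4, which is not on the premyelinating list, was the largest fall among the genes ranked by size. It had 0.0548, 0.0937, 0.0938 and 0.573 CPM in IFN-gamma libraries, against 1.79, 1.55, 2.15 and 10 CPM in untreated libraries. The groups did not overlap, at a log2 fold change of -4.27 with an SE of 0.71 and an adjusted p of 1.61e-05. Without untreated replicate 4 it was at -3.14 ± 0.66 (adjusted p = 0.000614), and its mean level would have been too low for the ranking. The number of premyelinating genes called lower was 9 without untreated replicate 4, 14 without IFN-gamma replicate 1, 8 without the IFN-gamma libraries low in Y-linked reads, 3 in library numbers 1 to 20 and 17 in library numbers 21 to 40. Over all genes tested, those called lower numbered 1097, 1161, 766, 546 and 1155 in the same order, against 1585 with all libraries. Gpr17 was not called without IFN-gamma replicate 1 (-0.97) or untreated replicate 4 (-0.99). Bcas1 was called lower (-0.885, adjusted p = 0.0113), but not without IFN-gamma replicate 1 (-0.743) or untreated replicate 4 (-0.497, adjusted p = 0.179).

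Genes of compact myelin and its loops were lower in smaller number. Of 28 tested structural myelin genes 10 fell, among them Mog, Opalin, Mbp, Trf, Tmem88b, Nfasc, Gsn, Gjb1 and Cldn11, and the small heat shock protein Cryab (2.06 ± 0.43) and the carbonic anhydrase Car2 (1.05 ± 0.32) rose, with a median of -0.63. Mbp, which holds the inner faces of the myelin membrane together, had 23.6, 37.2, 55.6 and 77.7 CPM in IFN-gamma libraries, against 89.8, 94.7, 120.4 and 325 CPM in untreated libraries. Its groups did not overlap, untreated replicate 4 was the highest library, and the log2 fold change was -1.70 with an SE of 0.59 and an adjusted p of 0.0336 with untreated replicate 4 and -1.06 ± 0.59 (adjusted p = 0.247) without it. Mog, on the outer surface of myelin, had 0.219, 0.328, 0.656 and 0.729 CPM in IFN-gamma libraries, against 1.68, 0.901, 2.62 and 7.89 CPM in untreated libraries. Its groups did not overlap, and its log2 fold change was -2.77 with an SE of 0.65 and an adjusted p of 0.00152. Mag (-1.52 ± 0.60, adjusted p = 0.063), Cnp (-0.63 ± 0.29, adjusted p = 0.113) and Mobp (-0.32 ± 0.69, adjusted p = 0.784) were not called. Mag was called lower with a block for library numbers 1 to 20 against 21 to 40 (-1.52 ± 0.41, adjusted p = 0.00506), with library numbers 21 to 40 alone (-1.51 ± 0.43, adjusted p = 0.0243) and without IFN-gamma replicate 4 (-1.95 ± 0.67, adjusted p = 0.0346). The number of structural myelin genes called lower was 5 without untreated replicate 4, 7 without IFN-gamma replicate 1, 6 without the IFN-gamma libraries low in Y-linked reads and 2 in library numbers 1 to 20. Counts over all genes tested in these settings are given with the premyelinating genes. Car2 (0.91), Nfasc (-0.75), Tmem88b (-1.11) and Mbp (-1.48) were not called without IFN-gamma replicate 1. Car2 (0.88) was not called without untreated replicate 1. Cldn11 (-0.50), Nfasc (-0.57), Tmem88b (-0.77), Mbp (-1.06) and Mog (-1.80) were not called without untreated replicate 4. Nfasc (-0.94) and Mbp (-1.60) were not called without IFN-gamma replicate 2. Nfasc (-0.88), Tmem88b (-1.22) and Mbp (-1.77) were not called without IFN-gamma replicate 3.

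**Figure D3:**
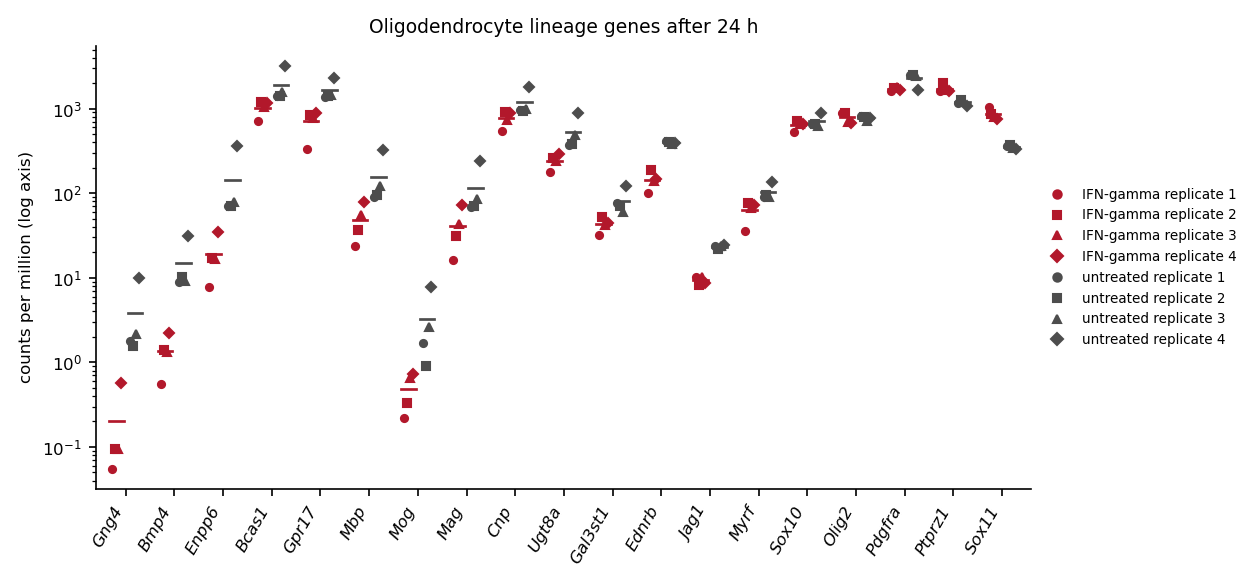
Levels of oligodendrocyte lineage genes in the 4 IFN-gamma libraries (red) and the 4 untreated libraries (grey) after 24 h, in CPM on a log axis. Symbols mark replicates 1 to 4 and bars the group means; untreated replicate 4 (diamond) is the highest untreated library for Mbp, Enpp6 and Gpr17.

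Most progenitor genes and regulators of the lineage were not called. For this list and those below, the shares over all genes tested were 12.6% higher and 10.5% lower. Of 25 progenitor genes, Ptprz1 (0.54 ± 0.12) and Tmem100 (0.52 ± 0.11) rose and 7 fell. Ednrb, the endothelin receptor that holds progenitors back from maturing, had 100.4, 186, 138 and 148 CPM in IFN-gamma libraries, against 410.2, 406, 379 and 396 CPM in untreated libraries. All IFN-gamma libraries were below all untreated ones, at a log2 fold change of -1.47 with an SE of 0.16 and an adjusted p of 5.89e-09. Pdgfra had 1635, 1753, 1802 and 1647 CPM in IFN-gamma libraries, against 2481, 2499, 2437 and 1674 CPM in untreated libraries. The IFN-gamma libraries lay below 3 of the untreated libraries and overlapped untreated replicate 4, and Pdgfra was not called (-0.41 ± 0.17), nor was the proteoglycan Cspg4 (-0.18 ± 0.18). With untreated replicate 4 left out, Pdgfra was called lower, at -0.53 ± 0.18 (adjusted p = 0.0335). Of 24 tested lineage transcription factors, Sox11 (1.29 ± 0.13), Zfp536 (0.93 ± 0.21), Nfib (0.70 ± 0.17) and Hey1 (0.25 ± 0.08) rose, and Hes1 (-1.10 ± 0.21), Hes5 (-0.93 ± 0.28), Sox8 (-0.73 ± 0.21) and Sox4 (-0.62 ± 0.15) fell. Olig1 (0.38 ± 0.17), Olig2 (0.02 ± 0.13), Sox10 (-0.14 ± 0.12) and Myrf (-0.70 ± 0.29), which specify the lineage and drive its maturation, were not called. In the fit with a block for library numbers 1 to 20 against 21 to 40, Olig1 was called higher (0.36 ± 0.13, adjusted p = 0.043) and Myrf lower (-0.70 ± 0.26, adjusted p = 0.0415). Without IFN-gamma replicate 2 the number of factors called lower was 7. Hey1 was not called without IFN-gamma replicate 2 (0.14) or untreated replicates 2 (0.24), 3 (0.23) or 4 (0.24). Sox8 was not called without IFN-gamma replicate 1 (-0.59) or untreated replicate 4 (-0.51). Hes5 (-0.80), Sox4 (-0.43) and Sox8 (-0.47) were not called without the IFN-gamma libraries low in Y-linked reads.

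Of 21 tested BMP, Wnt and Notch genes 3 rose and 4 fell, with a median log2 fold change of -0.09. Over all genes tested 12.6% were higher and 10.5% lower. The receptors Bmpr1b (1.10 ± 0.23), Bmpr1a (0.52 ± 0.05) and Notch1 (0.52 ± 0.07) rose. The ligands Bmp4, Jag1 (-1.32 ± 0.09) and Dll3 (-0.93 ± 0.27) and the Wnt co-receptor Lrp4 (-0.66 ± 0.10) fell. Bmp4, a secreted factor that blocks oligodendrocyte maturation and is made by premyelinating cells, had 0.548, 1.41, 1.31 and 2.24 CPM in IFN-gamma libraries, against 8.96, 10.2, 9.24 and 31.2 CPM in untreated libraries. Untreated replicate 4 was the highest library and the groups did not overlap, and the log2 fold change was -2.76 ± 0.55 (adjusted p = 0.00027) without it. Leaving out untreated replicate 4 gave 5 genes of this list called higher. Dll3 was not called without IFN-gamma replicate 1 (-0.76).

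Lipid, channel and matrix genes of the lineage mostly fell or were not called. Of 25 sphingolipid and fatty acid enzymes 7 fell, among them Fa2h (-1.57 ± 0.42), Ugt8a (-1.13 ± 0.32) and Gal3st1 (-0.94 ± 0.22), which make the galactolipids of myelin, and 3 fell without untreated replicate 4. The ceramide synthase Cers6 (2.20 ± 0.12) rose. Of 30 tested cholesterol genes only the apolipoproteins Apol9a and Apol9b and the sterol carrier Stard4 (0.62 ± 0.17) rose. Of 30 channels, receptors and synaptic genes 11 fell and 3 rose, among them Grik2 (1.28 ± 0.14) and P2rx7 (0.38 ± 0.11), and 7 fell without untreated replicate 4 or without IFN-gamma replicate 1. Gpr37, an orphan receptor that restrains oligodendrocyte maturation in mice, had 0.822, 1.64, 2.16 and 2.76 CPM in IFN-gamma libraries, against 14, 12.6, 15 and 19.4 CPM in untreated libraries. Its groups did not overlap, at a log2 fold change of -3.04 with an SE of 0.36 and an adjusted p of 2.3e-08. Of 29 tested matrix and adhesion genes 11 fell, with the guidance cue Sema5a at -2.65 ± 0.45, and the metalloproteinase inhibitors Timp3 (1.63 ± 0.20) and Timp1 (1.07 ± 0.29) and the collagen Col11a1 (0.21 ± 0.07) rose. Col11a1 was not called without IFN-gamma replicates 2 (0.18), 3 (0.20) or 4 (0.20) or untreated replicate 4 (0.20). Ugt8a was not called without untreated replicate 4 (-0.77). Fa2h was not called without untreated replicate 4 (-1.13). Fa2h (-1.245), Ugt8a (-0.946), Timp1 (0.897), P2rx7 (0.302) and Stard4 (0.515) were not called without the IFN-gamma libraries low in Y-linked reads.

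Few proliferation genes and no ribosomal protein genes were called, beside 12.6% higher and 10.5% lower over all genes tested. The median log2 fold change was 0.31 for the DNA replication and mitosis list and 0.025 for the ribosomal proteins. Of 32 DNA replication and mitosis genes 4 rose, E2f1 (0.72 ± 0.24), Top2a (0.72 ± 0.20), Cdc6 (0.68 ± 0.23) and Cdt1 (0.68 ± 0.25), but the number was 0 without untreated replicate 4, the library with the lowest summed level of the list. The summed level was 6153 to 9393 CPM in IFN-gamma libraries, against 3990.3 to 7003 CPM in untreated libraries, and the groups overlapped. Leaving out IFN-gamma replicate 2 gave 8 genes, and leaving out IFN-gamma replicate 1 or 3 gave 1. Mki67, a marker of cycling cells, was not called (0.32 ± 0.22). Of 17 G1 genes, Rbl1, Cdkn2a and the inhibitor Cdkn1b (0.40 ± 0.08) rose and Rbl2 fell, and Ccnd1 (0.50 ± 0.25) and Cdkn1a (-0.07 ± 0.19) were not called. Of 32 ribosomal protein genes none was called by edgeR, with 0 at an unadjusted p under 0.05 and 0 by DESeq2. Of 27 nuclear genes of oxidative phosphorylation 6 fell and 1 rose, with a median of -0.06. The number that fell was 7 without untreated replicate 4 and 0 in library numbers 21 to 40. E2f1 (0.58), Cdc6 (0.56), Cdt1 (0.54), Rbl1 (0.49) and Cdkn2a (0.41) were not called without IFN-gamma replicate 1. E2f1 (0.71), Cdc6 (0.64) and Cdt1 (0.66) were not called without IFN-gamma replicate 3. E2f1 (0.55), Top2a (0.56), Cdc6 (0.53), Cdt1 (0.51), Rbl1 (0.53) and Cdkn2a (0.45) were not called without untreated replicate 4. Cdt1 (0.70) and Rbl2 (-0.13) were not called without IFN-gamma replicate 4. Cdt1 (0.72) and Rbl2 (-0.15) were not called without untreated replicate 2. Cdt1 (0.71) was not called without untreated replicate 3.

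Of 14 tested NF-kappaB genes, the feedback inhibitor Tnfaip3 (2.91 ± 0.22), Bcl3 (0.62 ± 0.11), Nfkbie (0.41 ± 0.14) and Tank rose and Nfkbib, Relb and Nfkbia (-0.39 ± 0.08) fell. Among 15 tested genes of the disease-associated oligodendrocyte list, which overlaps the antigen presentation lists, 9 rose and the kinase Sgk1 (-1.51 ± 0.28) fell, and the signature genes Serpina3n (-0.29 ± 0.18) and Il33 (-0.54 ± 0.49) were not called. Leaving out IFN-gamma replicate 1 put Il33 among the genes called lower, at -1.54 ± 0.51 (adjusted p = 0.0335). Nfkbie was not called without IFN-gamma replicates 2 (0.31) or 3 (0.37) or untreated replicates 1 (0.38), 2 (0.32) or 3 (0.39). Tank was not called without IFN-gamma replicate 1 (0.15) or untreated replicate 4 (0.19). Relb was not called without IFN-gamma replicates 3 (-0.39) or 4 (-0.45) or untreated replicates 1 (-0.44) or 4 (-0.41). Nfkbib was not called without untreated replicate 4 (-0.30).

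**Figure D4:**
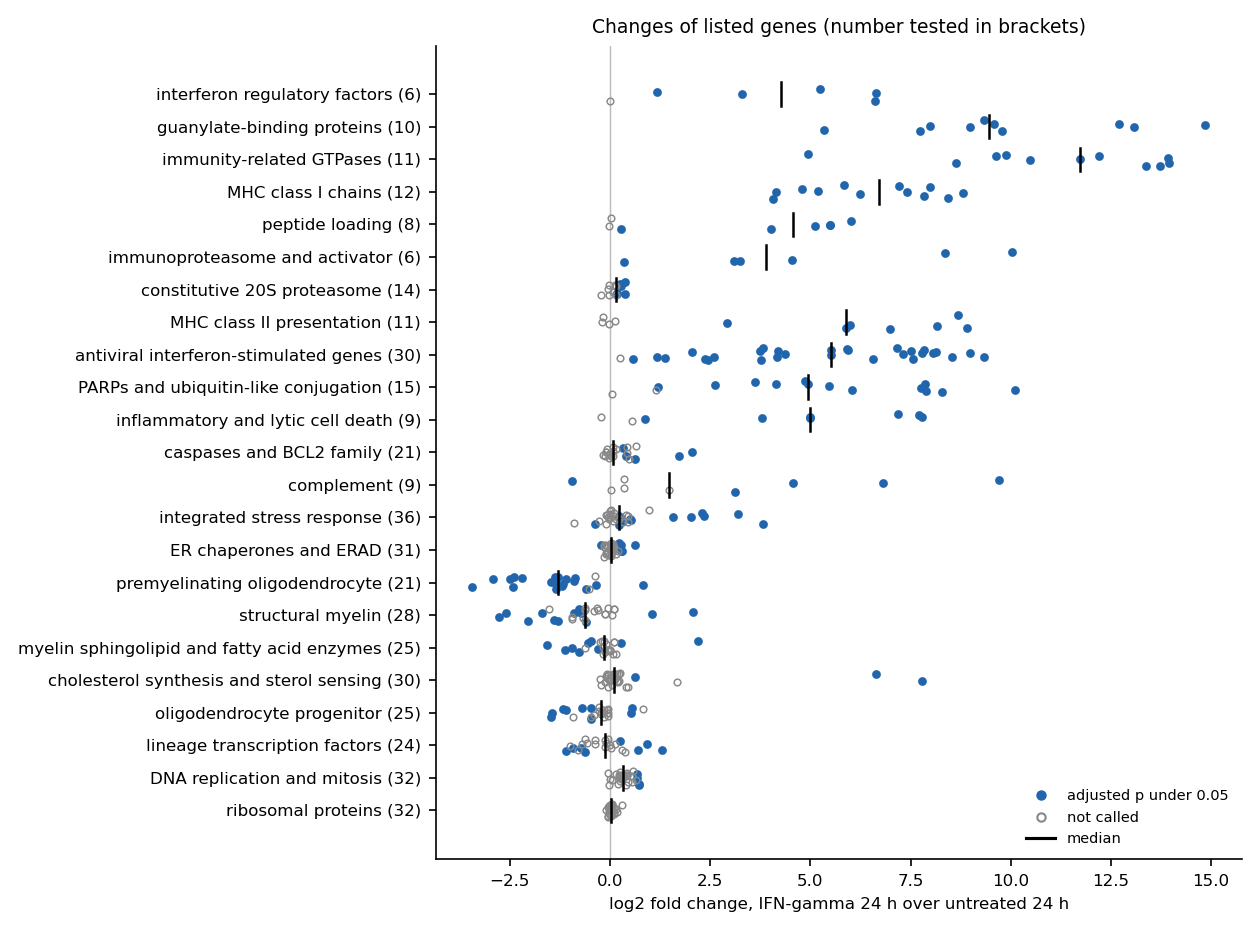
Log2 fold changes (IFN-gamma over untreated, 24 h) of the tested genes of each list, 1 point a gene. Blue points passed an adjusted p of 0.05, open points did not, and black lines are medians; GTPase and MHC class I lists lie far to the right, and premyelinating genes to the left of 0.

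Markers of other cell types differed in level and in how they moved, and some rose in IFN-gamma libraries. Of 16 microglia and macrophage markers, 4 passed the filter, and Cd68 (0.53 ± 0.15) rose. Their summed level was 27.9 to 31 CPM in IFN-gamma libraries, against 25.1 to 31.9 CPM in untreated libraries, and Aif1, C1qa, C1qb, Tmem119 and Trem2 had no read in IFN-gamma libraries. T and NK cell markers summed to 4.03 to 6.3 CPM in IFN-gamma libraries, against 1.43 to 3.82 CPM in untreated libraries, with Lck as the single gene tested and no read of Gzmb or Prf1 in IFN-gamma libraries. Astrocyte markers summed to 642 to 687 CPM in IFN-gamma libraries, against 454 to 518 CPM in untreated libraries, with Slc1a3 (0.85 ± 0.15) and Aldoc (0.73 ± 0.10) higher and S100b and Fgfr3 lower, genes that the oligodendrocyte lineage also expresses. Neuron markers summed to 1394 to 1732 CPM in IFN-gamma libraries, against 1473 to 1511 CPM in untreated libraries, and of 9 tested, Tubb3 (1.79 ± 0.13), Syt1, Gap43 and Nefm rose. Endothelial and mural markers summed to 12.7 to 14 CPM in IFN-gamma libraries, against 6.44 to 10.4 CPM in untreated libraries, with Acta2 (5.13 ± 0.30) higher and Kdr and Tagln (-2.03 ± 0.69, and -0.31 and not called in the transcript table summed per gene) lower. Fibroblast markers summed to 9.97 to 14.1 CPM in IFN-gamma libraries, against 1.97 to 7.16 CPM in untreated libraries, with Lum (4.48 ± 0.33) and Fn1 (1.34 ± 0.22) higher. Those were the 2 tested of 10 markers on that list. The collagen genes Col1a1, Col1a2 and Col3a1 were too sparsely read to be tested. They had 8, 9 and 6 reads over the IFN-gamma group, against 22, 32 and 18 over the untreated group. The part of other cells in the results was not tested. Nefm was not called without IFN-gamma replicate 1 (0.51) or untreated replicate 4 (0.49). Fgfr3 was not called without IFN-gamma replicates 2 (-0.52), 3 (-0.47) or 4 (-0.49) or untreated replicates 2 (-0.51) or 4 (-0.44). S100b was not called without IFN-gamma replicates 1 (-0.75), 2 (-0.97) or 3 (-0.97) or untreated replicate 4 (-0.59). Tagln was not called without IFN-gamma replicates 1 (-1.66) or 3 (-1.95) or untreated replicate 4 (-1.21).

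The 24 h response was then set against that at 8 h by testing the difference of the IFN-gamma effects, each against untreated cells of its own time. The effects differed for 203 genes (1.34%), larger at 24 h for 96 on the signed log2 scale and smaller for 107. The class I chains built up, and 9 of the 12 had a larger effect at 24 h. The median log2 fold change of the peptide loading list was 4.56 at both times, and that of the immunoproteasome list was 3.88 at both. H2-K1 had 125 to 148 CPM in IFN-gamma libraries at 8 h and 1228 to 1321 CPM at 24 h, and the log2 fold changes differed by 3.57 ± 0.30 (SE, adjusted p = 5.81e-10). The difference was 3.58 ± 0.33 (SE, adjusted p = 5.42e-09) for H2-Q7, 2.44 ± 0.19 (SE, adjusted p = 1.35e-10) for H2-D1 and 1.25 ± 0.19 (SE, adjusted p = 0.000172) for B2m. Class II followed with H2-Ab1 at 2.33 ± 0.26 (SE, adjusted p = 6.08e-07) and H2-Eb1 at 3.17 ± 0.77 (SE, adjusted p = 0.0268). Other genes had smaller effects at 24 h. At 8 h Wars had 779.7 to 988 CPM in IFN-gamma libraries, against 109.6 to 128 CPM in untreated libraries. At 24 h it had 313 to 408 CPM in IFN-gamma libraries, against 114 to 119 CPM in untreated libraries, and the effects differed by -1.27 ± 0.16 (SE, adjusted p = 6.46e-06). The effect on Jak1 was smaller by 0.39 ± 0.08 on the log2 scale (SE, adjusted p = 0.00651). The effect on Gbp6 was also smaller at 24 h, by 2.26 ± 0.59 on the log2 scale (SE, adjusted p = 0.0425), although its IFN-gamma level averaged 694.5 CPM at 8 h and 689.5 CPM at 24 h, while its untreated level averaged 0.173 CPM at 8 h and 0.737 CPM at 24 h. Of the genes that rose at 24 h, 37 had larger effects than at 8 h and 47 smaller. Without untreated replicate 4 the effects differed for 125 genes, and without IFN-gamma replicate 4 for 135. Gbp6 was not called without IFN-gamma replicates 1 (-2.24), 3 (-2.30) or 4 (-2.31) or untreated replicate 4 (-1.67). H2-Eb1 was not called without untreated replicate 1 (2.86).

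From 24 h to 48 h the effect differed for 255 genes (1.68%), 41 larger and 214 smaller on the signed scale, a contrast that shares the 24 h libraries with the one before. With library numbers 1 to 20 alone or with just the groups compared in the fit, edgeR called none of them, with 946 and 1239 genes at an unadjusted p under 0.05, while DESeq2 on all libraries called 436. Without untreated replicate 4 the number was 545, without untreated replicates 1, 2 or 3 it was 122, 144 or 130, and without IFN-gamma replicate 1 it was 150. At 24 h Carmil1, a regulator of actin filaments, had 64 to 72.7 CPM in IFN-gamma libraries, against 6.08 to 10 CPM in untreated libraries. At 48 h it had 48.4 to 69.6 CPM in IFN-gamma libraries, against 11.6 to 85.7 CPM in untreated libraries, and the effects differed by -2.98 ± 0.39 (SE, adjusted p = 4.35e-05). Its untreated libraries spread upward by 48 h, while its IFN-gamma libraries kept to a similar range. At 24 h Tspan4, a tetraspanin, had 26.9 to 37.7 CPM in IFN-gamma libraries, against 9.92 to 14 CPM in untreated libraries. At 48 h it had 13.2 to 27.5 CPM in IFN-gamma libraries, against 19.5 to 73.7 CPM in untreated libraries, a difference of -2.66 ± 0.32 (SE, adjusted p = 1.54e-05). The effects were larger at 48 h for the peptide transporter Tap1, by 1.09 ± 0.21 (SE, adjusted p = 0.0061), and for the class I chain H2-Q4, by 1.00 ± 0.26 (SE, adjusted p = 0.0354). At 48 h Mbp had 45.2 to 425 CPM in IFN-gamma libraries, against 255 to 2718 CPM in untreated libraries, so the groups overlapped. The effect on Mbp was not called as different from that at 24 h, at -1.24 ± 0.81 (SE, adjusted p = 0.496). H2-Q4 was not called without IFN-gamma replicates 1 (0.95) or 3 (0.99) or untreated replicates 1 (0.81) or 2 (1.05).

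**Figure D5:**
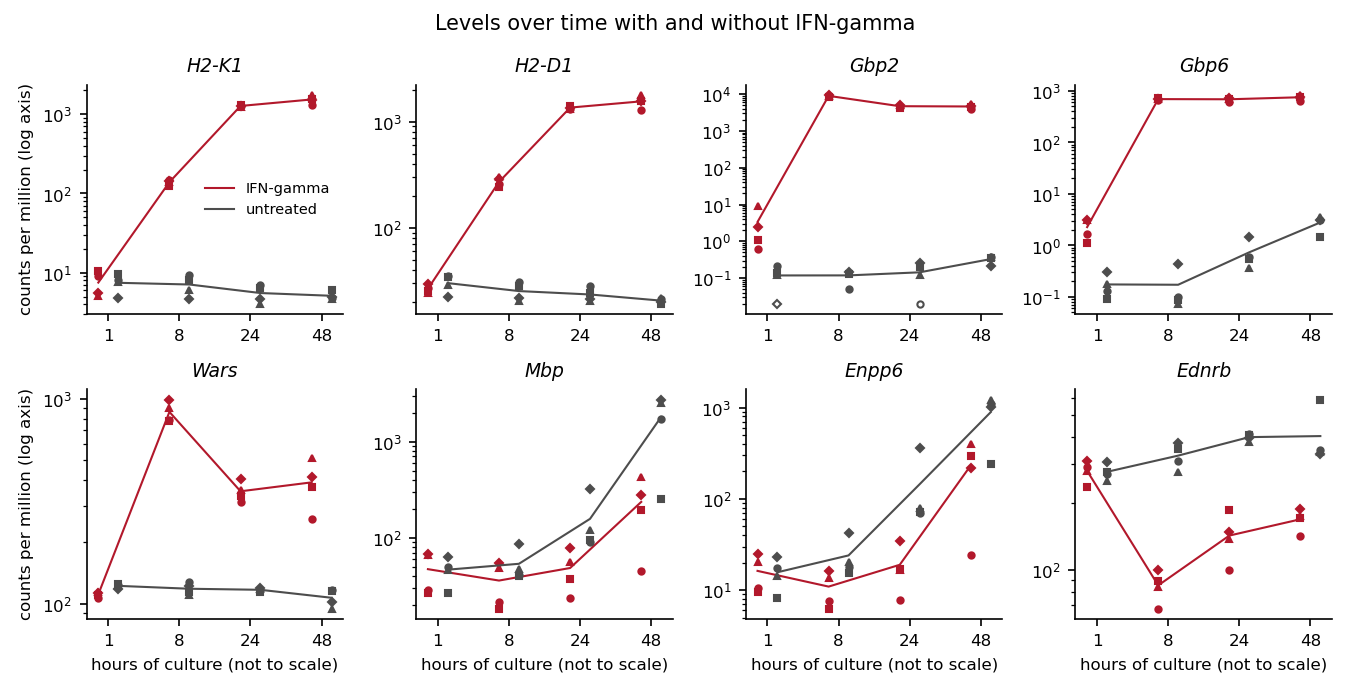
Levels of 8 genes at 1, 8, 24 and 48 h in IFN-gamma libraries (red) and untreated libraries (grey), in CPM on a log axis, 4 libraries a group with lines through the means. Hours are not to scale and open symbols at the bottom mark 0 CPM; H2-K1 goes on rising after 8 h, whereas Wars is highest at 8 h.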

How the data were processed

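RNA from oligodendrocytes of wild-type mice was sequenced in bulk, and the authors deposited a table of raw counts per gene and a table of estimated counts per transcript, both keyed by Ensembl identifiers. The submitters' processing notes name STAR, featureCounts, kallisto and edgeR without versions. The genome build is, like the annotation and how strand was treated, not given in the sources used here, so reads of genes that overlap on opposite strands may not be told apart. Symbols came from GENCODE M21 (38872 of 39056 gene identifiers and 112029 of 112588 transcripts matched), and promoter sequences from RefSeq on GRCm38.p6.

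Groups followed the sample labels. The deposited counts of all 40 libraries (10 groups of 4) were fitted together in edgeR 4.0.16 (R 4.3.3) with a filter by group (filterByExpr), TMM scaling and the quasi-likelihood test with 30 residual degrees of freedom, and 15135 genes were tested. Calls are Benjamini-Hochberg adjusted p under 0.05. Depth was 15837650 to 22651092 reads a library, and intervals of ratios (95%) and the floor of 3 reads cover counting error only. Fold changes use a prior count of 0.125, so those of genes almost silent in untreated cells depend on it. The difference of effects between times was tested as an interaction in the same fit, which treats libraries of different times as unrelated. Shares of transcripts were tested on estimated counts, rounded to whole numbers, with edgeR's diffSpliceDGE and, added after seeing simulated data, limma 3.58.1 on the log2 odds of each share. Between replicates of a group, counts differed by more than sampling noise (a chi-square over its degrees of freedom was 13.1 or more). Such spread may be technical, so this check cannot show whether replicates were separate cultures or animals. All 8 libraries were counted as samples, and their independence was not tested.

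Genes were named by rule: the 10 largest log2 fold changes in each direction, taken over called genes that averaged at least 1 in log2 CPM and whose groups did not overlap, up to 4 called members of each list in each direction, a set of well-known genes, the 6 largest differences between times in each direction, and the 6 genes with the smallest p for transcript shares; the text gives those that its comparisons turn on, and some genes of these lists are not reported here. Members of counts of 5 or fewer, and the genes named as not called, were added after their values were seen. The comparison and the gene lists were chosen with earlier results of these data known. The tests were also tried on simulated data with planted changes, built from the levels and spread of these data. Alternatives tried were DESeq2 1.42.0, RLE size factors, no filter, a fit with just the groups compared, a block for library numbers 1 to 20 against 21 to 40 and each of these ranges alone, the Y-linked level as a covariate, the low Y-linked libraries left out, transcript estimates summed per gene, and each library left out in turn.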

Additional observations from a re-analysis of the deposited data

Results flagged for a closer look

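A library was set down here where its gap to the nearest other library of its group passed Dixon's limit at 95% for 4 values, which chance alone passes in about 1 in 20 groups. Of the genes named in the text, untreated replicate 4 was the high library for 31 and the low library for 8. It was high for genes almost silent without IFN-gamma, Iigp1 (0.424 CPM), Ciita (0.636 CPM), Zbp1 (0.721 CPM), Apol9b (0.0424 CPM), Usp18 (0.551 CPM), Lgals9 (0.297 CPM), Kmo (0.466 CPM), Trim14 (0.805 CPM) and Arap3 (0.848 CPM). It was also high for lineage and other genes that untreated cells express, Stat2 (26.3 CPM), Csf1 (42.4 CPM), Calr (1032 CPM), Sox10 (885 CPM), Cldn11 (1010.0 CPM), Sox4 (722 CPM), Cnp (1821 CPM), Myrf (134 CPM), Sox8 (539 CPM), Bcas1 (3220.0 CPM) and Nfasc (435 CPM). Further such genes were S100b (193 CPM), Gpr17 (2295 CPM), Tmem88b (108 CPM), Sgk1 (298 CPM), Mag (243 CPM), Mbp (325 CPM), Opalin (4.62 CPM), Sema5a (114 CPM), Enpp6 (358 CPM), Bmp4 (31.2 CPM) and Gng4 (10 CPM). It was low for Psme2 (37 CPM), Adar (41.7 CPM), Timp1 (1.87 CPM), E2f1 (6.32 CPM), Top2a (659 CPM), Rbl1 (40.8 CPM), Ccnd1 (432 CPM) and Pdgfra (1674 CPM). IFN-gamma replicate 1 was the high library for Trib3 (10.3 CPM), Manf (154 CPM) and Tank (72.6 CPM). IFN-gamma replicate 1 was the low library for Tgtp1 (420.3 CPM), Gbp6 (622 CPM) and Psmb9 (195 CPM). IFN-gamma replicate 2 was the high library for Cers6 (119.6 CPM), Ptprz1 (2020.0 CPM), Hey1 (32.2 CPM), Sox4 (498 CPM) and Sftpc (0.0469 CPM). IFN-gamma replicate 2 was the low library for Irf1 (789 CPM) and Edem1 (74.2 CPM). IFN-gamma replicate 3 was the high library for Epcam (0.0938 CPM). IFN-gamma replicate 4 was the high library for Gng4 (0.573 CPM). Untreated replicate 1 was the high library for Tgtp1 (0.109 CPM).

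The IFN-gamma effect, as a log2 fold change, differed between 24 h and 8 h in edgeR's interaction test for named genes in both directions. It was larger at 24 h for H2-Eb1 (3.17), H2-Q4 (1.93), H2-K1 (3.57), H2-Q7 (3.58), B2m (1.25), H2-Ab1 (2.33), H2-D1 (2.44) and Aldoc (0.63). It was smaller at 24 h for Gbp6 (-2.26), Tubb3 (-0.84), Wars (-1.27), Jak1 (-0.39) and Stat3 (-0.24). Between 48 h and 24 h it was larger at 48 h for H2-Q4 (1.00) and Tap1 (1.09). On the signed log2 scale it was smaller at 48 h for Gbp6 (-1.68), Acta2 (-1.87), Carmil1 (-2.98), Tspan4 (-2.66), Grik2 (-0.78), Zfp536 (-1.24), Rras2 (-1.22), Edem1 (-0.75), Bmpr1a (-0.31) and Fgfr3 (-1.27). A negative difference need not mean a weaker effect. Fgfr3 was already lower at 24 h (-0.52), so its fall was larger at 48 h. The IFN-gamma mean of Tspan4 was above the untreated mean at 24 h and below it at 48 h. Both sets of differences use the 24 h libraries. Of the differences between 48 h and 24 h, some turned on 1 library. Acta2 was not called without untreated replicate 2 (-1.52). Grik2 was not called without IFN-gamma replicates 1 (-0.80), 2 (-0.70) or 4 (-0.79) or untreated replicates 1 (-0.76), 2 (-0.80) or 3 (-0.76). Zfp536 was not called without untreated replicates 1 (-1.19) or 3 (-1.19). Bmpr1a was not called without IFN-gamma replicates 1 (-0.31) or 2 (-0.27) or untreated replicates 2 (-0.31) or 3 (-0.30).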

How the results depend on the processing

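The 3493 genes called at 24 h numbered 2683 to 3412 when each of the 8 libraries was left out in turn (1541 to 1879 higher and 1097 to 1533 lower), 3642 with DESeq2, 3524 with RLE size factors, 3775 with the block for library numbers and 2693 with no filter. They numbered 1526 with library numbers 1 to 20 alone (980 higher, 546 lower) and 2015 without the IFN-gamma libraries low in Y-linked reads (1249 higher, 766 lower). Both settings have fewer libraries. The count of changes of at least 2-fold stayed within 1.5 times of 1015 in every setting run. The 203 genes whose effect differed between 24 h and 8 h numbered 344 with DESeq2, 105 with no filter, 346 with just the groups compared, 13 and 37 with library numbers 1 to 20 and 21 to 40, 59 without the low Y-linked libraries, 83 with transcript estimates summed per gene, and 125 to 277 with each library left out. The 255 genes for 48 h against 24 h numbered 436 with DESeq2, 0 with just the groups compared, 404 with the block, 0 and 461 with library numbers 1 to 20 and 21 to 40, 7 without the low Y-linked libraries, 76 with transcript estimates summed per gene, and 122 to 545 with each library left out. The 72 genes with changed transcript shares in edgeR numbered 186 with no filter, 66 with the block, 59 with limma, and 74 to 143 with each library left out. The cause was not tested. Of the 164 genes named as higher or lower at 24 h, 102 were called in every setting run, 54 were not called with library numbers 1 to 20 alone, 39 without the low Y-linked libraries, 31 without untreated replicate 4 and 22 in the transcript table summed per gene, and none changed direction. In the transcript table summed per gene the log2 fold change was 0.02 for Cxcl9, 0.38 for Kmo, -0.31 for Tagln, -1.73 for Sftpc and -2.17 for Arap3, against 3.52, 2.38, -2.03, -4.04 and -5.41 in the gene table, and none of these was then called. Libraries were not paired one to one, because the labels give them no shared replicate numbers, and the block for library numbers was the nearest fit run. In the IFN-gamma groups at 8, 24 and 48 h, the Y-linked level was 7.28, 6.74 and 8.18 CPM for replicate 1. It was 0.662, 0.656 and 1.15 CPM for replicate 3, and replicates 2 and 4 were high each time. Whether such libraries share a culture was not tested, and the p-values for differences between times do not allow for it. With the block Mag and Myrf were called lower and Olig1 higher, calls that the same fit with no block did not make, and no called gene of the text lost its call. At this depth genes with a few untreated reads, such as the GTPases, have folds known only as ranges.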
